A study of Solanum lycopersicum with 24 samples.

Results

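Stable genes were sought in tomato leaves as genes whose transcript level stayed nearly the same with and without heat stress (HS) and with and without the splicing regulators RS2Z35 and RS2Z36. Reads per gene were scaled to library size (CPM) with TMM factors, which place the libraries on a common scale through the bulk of the genes rather than through the total. A gene was counted as stable when the lowest of its 8 group means was at least 50 CPM and the highest exceeded the lowest by at most 15%. This rule chose 169 genes, which are 7% of the 2414 genes with a lowest group mean of at least 50 CPM (hereafter the expressed genes) and 0.687% of the 24583 genes whose reads summed to 10 or more. All group means entered the choice, so the flatness of these genes over the groups is a description and was not tested.

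The groups came from a study on how a pair of RS2Z proteins, which bind pre-mRNA and belong to the SR family of splicing factors, shape the heat response. Leaves were excised from 6 plants of cultivar Moneymaker at 6 weeks of age and kept for 1 h at 40°C in sealed petri dishes (HS) or for 1 h at 25°C (control). Each condition comprised the single mutants rs2z35 and rs2z36, the double mutant rs2z35 36 and the wild type (WT), with 3 libraries per group and 24 in all. The mutants carry CRISPR-Cas9 indels of a single nucleotide and were homozygous plants of a later generation, and rs2z35 36 came from a cross of the single mutants. Leaves were pooled before extraction, and the libraries of a group are described as biological replicates.

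A reference gene is a gene whose transcript is taken to be equally abundant in all samples, so that other transcripts can be expressed relative to it in RT-qPCR. Genes for actin, tubulin, ubiquitin or elongation factors have long served this purpose because every cell uses them, but their use does not guarantee a constant transcript level. Heat stress is a demanding case, since heat shock factors induce chaperone genes so strongly that their transcripts take up a large part of the mRNA pool. Every gene that keeps its number of transcripts then makes up a smaller part of the pool, and whether it counts as stable depends on what its level is divided by.

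The libraries held between 16853134 and 23929283 reads in genes in HS and between 18692423 and 22517273 in control. The 10 most abundant genes took 12.2 to 14.9% of the reads in HS and 4.61 to 5.62% in control. TMM factors were 0.74 to 0.85 in HS and 1.24 to 1.33 in control. The labels were checked on the edited genes and on leaf genes. RS2Z35 had 42.7 to 51.1 CPM in the 6 HS libraries of the mutants that carry its indel, against 217 to 260 CPM in the 6 HS libraries with the intact gene. In control it had 30.7 to 33.9 CPM in the mutants, against 183 to 221 CPM. RS2Z36 was at 84.7 to 93.8 CPM in HS in the mutants that carry its indel, against 104 to 128 CPM in the other genotypes, and at 33.7 to 44.9 CPM in control, against 53.2 to 78.5 CPM. HSFA2, a heat-induced transcription factor of acquired thermotolerance, ranged over 2805 to 4420 CPM in HS and over 21.4 to 30.5 CPM in control. All 3 chlorophyll a-b binding protein genes examined as leaf markers were at 385 CPM or more in every library, and 3 trichome genes stayed between 0 and 52.6 CPM.

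The group means of the stable genes differed by a factor of 1.043 to 1.1497 (median 1.12), whereas the median over the expressed genes was 1.44. Such flatness was uncommon at this level. Of the 2414 expressed genes, 370 had a highest group mean within 20% of the lowest and 1368 within a factor of 1.5, and 452 exceeded a factor of 2. A limit of 10% was met by 40 genes and one of 5% by 2. A further 312 genes were within 15% but had a lowest group mean under 50 CPM. Values near the limits passed continuously from one side to the other. The members closest to the ratio limit were Solyc02g065300 (1.1497), Solyc08g063050 (1.1488) and Solyc09g091940 (1.1484), and the genes just beyond it were Solyc12g099910 (1.1501), Solyc06g067880 (1.1505) and Solyc02g070570 (1.1506). At the level limit, Solyc07g065275 (50.2 CPM), Solyc01g096270 (50.8 CPM) and Solyc06g065990 (50.8 CPM) were inside, and Solyc01g109770 (49.7 CPM), Solyc12g036200 (49.6 CPM) and Solyc07g053910 (49.0 CPM) were outside.

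**Figure D1:**
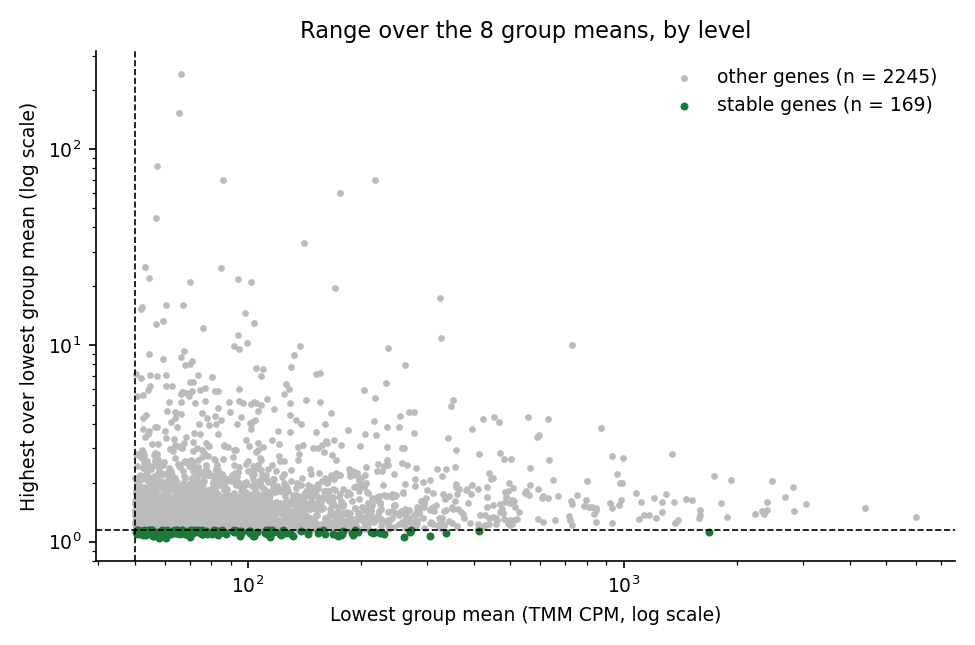
Highest over lowest of the 8 group means (vertical axis, log scale) against the lowest group mean in TMM CPM (horizontal axis, log scale) for the 2414 expressed genes. Green points are the 169 stable genes, which fill the strip below the dashed limit of 15% above the lowest mean and thin out towards high levels, and dashed lines mark both limits of the rule.

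In HS against control over all genotypes, 27.9% of the 24583 tested genes were called as DEGs (absolute log2FC above 1 and adjusted p below 0.01 with edgeR's quasi-likelihood test), 3444 of them higher and 3409 lower. None of the 169 stable genes was among them, a count that the rule itself fixes. Their log2FC lay between -0.13 and 0.14. The mutants changed far fewer genes at the same thresholds, 0.061% of the tested genes in rs2z35, 0.232% in rs2z36 and 0.423% in rs2z35 36, each against WT, and again no stable gene. The log2FC of the stable genes spanned -0.14 to 0.08 in rs2z35, -0.16 to 0.15 in rs2z36 and -0.16 to 0.14 in rs2z35 36. Libraries of the conditions overlapped in every stable gene. The rule largely brings this about, since it keeps the group means of these same libraries close together. The overlap is therefore a description and not a further test. The 12 HS libraries did not overlap with the 12 control libraries in 34.5% of the tested genes and in 896 of the 2414 expressed genes, but in 0 of the 169 stable genes.

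Genes that were level over the genotypes were far more numerous than genes that were also level over heat. The second set lies within the first, and a limit over 8 means is harder to meet than one over 4. The order of these counts was thus fixed in advance. Within HS, 1214 of the expressed genes kept their 4 genotype means within 15%, and within control 1450 did. Both held for 911 genes, and only 169 of these (18.6%) were also level between the conditions to the extent that the rule asks. Of the 911 genes that were level over genotypes in each condition, 253 had an HS mean more than 15% above the control mean and 254 a control mean more than 15% above the HS mean. A heat ratio of 2 or more was found for 33 of them, and one of 0.5 or less for 13. The remaining 235 lay between these limits in their overall heat ratio but exceeded 15% over the 8 groups.

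The differences that remained within the limits of the rule are given here as a description on the TMM scale. The HS mean exceeded the control mean in 71 of the 169 genes, and the ratio of HS to control had a median of 0.993 and a range of 0.912 to 1.098. By genotype, the median ratio of HS to control was 1.00 in rs2z35, 0.991 in rs2z36, 0.995 in rs2z35 36 and 0.990 in WT. The lowest such ratio of a single stable gene was 0.874 and the highest 1.148. Medians of mutant over WT were equally close to 1, namely 0.998 in HS and 0.987 in control for rs2z35, 1.00 in HS and 0.996 in control for rs2z36, and 1.01 in HS and 0.996 in control for rs2z35 36. The ratio of rs2z35 to WT in control was above 1 in 59 of the 169 genes, the fewest of these 6 comparisons, and that of rs2z35 36 to WT in HS in 100, the most. For 67 genes the lowest group was an HS group and the highest a control group, for 45 genes it was the reverse, and for 57 genes both extremes fell in the same condition. WT control was the highest group most often (37 genes), rs2z35 36 HS followed with 32, and rs2z35 control was the lowest group most often (37 genes). When the variance over the 24 libraries was divided, the replicates held a median of 62.9% in the stable genes and 22.4% in the expressed genes, and the heat term 7.19% and 59.6%. The genotype term held 12.6% and 8.70%, and the interaction 8.03% and 3.08%. These are shares of a total, so a rule that limits the differences between groups raises the share of the replicates.

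A flat group mean can hide a wide spread between libraries, so each gene was also followed library by library. The coefficient of variation (CV, the SD over the 24 libraries divided by the mean) had a median of 6.02% in the stable genes, with a range of 3.46 to 11.4%, against a median of 15.2% in the expressed genes. All 29 expressed genes with a CV of at most 5% were stable genes. A CV of at most 10% was found in 599 expressed genes, 165 of which were stable genes. The CV over 24 libraries also includes the differences between group means, which the rule keeps small. These contrasts with the expressed genes therefore follow largely from the rule. The highest library exceeded the lowest by a median factor of 1.26 (1.14 to 1.65) in the stable genes. This factor was at most 1.2 for 24 of them, at most 1.3 for 115 and above 1.5 for 3. In 26 genes all 24 libraries lay within 10% of the gene's own mean, and in 124 genes they lay within 15%. The same band of 15% held for 225 expressed genes.

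The spread within groups was below that of the expressed genes. Scatter between the 3 libraries of a group moves the group mean, so the rule itself favours genes with a small spread. How much of the difference comes from this choice was not tested. The CV between the 3 libraries of a group, as a root mean square over the 8 groups, had a median of 5.71% in the stable genes and 7.92% in the expressed genes. It amounted to 5.94% in HS and 4.97% in control, and 106 of the 169 stable genes had the larger value in HS. The expressed genes differed likewise, with 8.14% in HS and 7.16% in control. The number of reads behind the values differed as well. A stable gene had a median of 1152 reads per HS library and 2068 reads per control library, which corresponds to a counting CV of 2.96% in HS and 2.20% in control. With the counting error taken off in quadrature, the median within-group CV was 4.97% in HS and 4.46% in control.

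The spread in HS needs a further qualification. The authors adjusted the HS counts with ComBat-Seq, a tool that removes batch differences from counts, while for the control counts the sources name no adjustment. In the deposited HS counts, the means of the 3 replicate numbers over the 4 genotypes differed by a median of only 1.01% in the stable genes (0.76 to 1.47%), against 4.68% in control (0.13 to 15.5%). The mean square of the replicate number was a median of 0.0253 times the residual mean square in HS and 0.871 times in control, and it was below 0.1 for 160 of 169 stable genes in HS and for 18 in control. The same was found over the expressed genes, with 2379 of 2414 below 0.1 in HS and 245 in control. The CVs of HS and of control libraries therefore come from counts that were made in different ways.

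Solyc11g073280, on chromosome 11 by its gene number, had the smallest CV of all. It had 57.3, 59.7 and 60.9 CPM as the lowest, median and highest of the 12 HS libraries, against 55.4, 59.5 and 64.9 CPM in the 12 control libraries. Its HS range lay wholly inside its control range. Group means were 60.6 ± 0.281 CPM in rs2z35 HS, 58.1 ± 0.699 CPM in rs2z36 HS, 58.9 ± 1.34 CPM in rs2z35 36 HS and, in WT HS, 59.9 ± 0.326 CPM (all SD over 3 libraries). In control they were 59.4 ± 1.90 CPM in rs2z35, 59.4 ± 2.89 CPM in rs2z36, 59.7 ± 2.42 CPM in rs2z35 36 and 60.0 ± 4.74 CPM in WT. The CV of 3.46% over 24 libraries was close to the 3.01% that counting 1201 reads on average would give alone. Within HS groups its CV was 1.34%, below the 3.41% of counting error in these adjusted counts, and within control groups it was 5.31%, above the 2.56% of counting error. The control value also exceeded the median of the stable genes within control groups (4.97%), so its first rank rests on the adjusted HS libraries. Libraries of WT control set its extremes, with replicate 2 the lowest and replicate 3 the highest.

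Solyc03g019720 on chromosome 3 was second, with 50.5, 53.7 and 56.4 CPM (lowest, median and highest) in HS, against 51.6, 53.8 and 58.6 CPM in control. Its CV of 3.78% also approached the counting error of 3.16%. Solyc03g032160, next by CV (3.83%), had 78.4, 80.9 and 83.3 CPM in HS, against 74.1, 80.02 and 87.6 CPM in control, so that its HS libraries were again the more compact ones. Solyc04g009410 (CV 3.99%) had 65.3, 70.8 and 79.0 CPM in HS, against 67.6, 71.8 and 76.9 CPM in control. In this gene the HS libraries were the wider ones, and WT HS held both the lowest and the highest of them.

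The next 6 genes by CV were Solyc07g005560, Solyc07g053260, Solyc01g007860, Solyc12g062870, Solyc02g092270 and Solyc01g111450, with CVs from 4.09 to 4.28%. Solyc07g053260 had 177, 203 and 207 CPM in HS, against 185, 202 and 210 CPM in control, and its lowest value came from a single WT HS library. Its CV was 4.13% and its counting CV 1.65%. Solyc02g092270 had the smallest factor between the highest and the lowest library of all 169 genes (1.14), with 85.3, 91.6 and 96.9 CPM in HS, against 84.9, 88.4 and 96.8 CPM in control. Solyc01g111450 had the largest shift of the 10, with 60.8, 64.7 and 70.3 CPM in HS, against 64.1, 66.9 and 71.5 CPM in control, a ratio of the means of 0.963. All 10 genes met the rule in each of the 24 settings with a library left out.

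**Figure D2:**
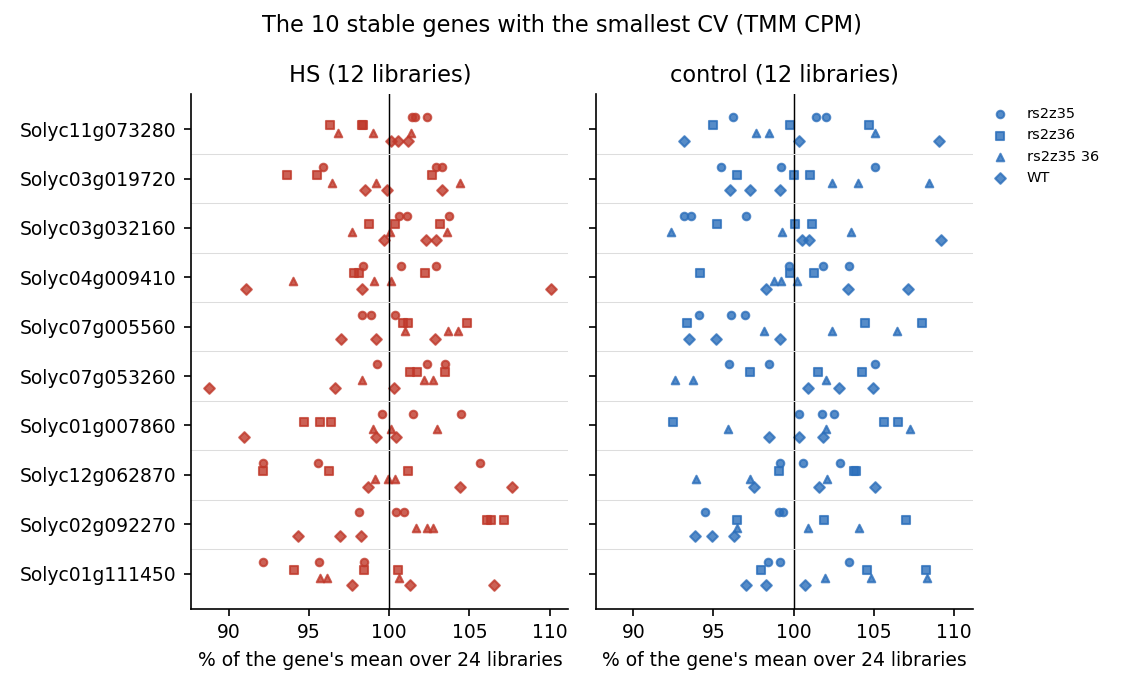
TMM CPM of the 10 stable genes with the smallest CV in each library, in % of the gene's mean over 24 libraries (horizontal axis), with the 12 HS libraries in the left panel and the 12 control libraries in the right one. Symbols mark genotypes, and all values of Solyc11g073280 lie between 93.1 and 109%, with the HS values closer together than the control values.

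A small CV in a gene with few reads is partly hidden by counting error, and in a gene with many reads it is not. Only 5 stable genes, and no other expressed gene, had a CV below 1.5 times their counting CV. These include Solyc11g073280 (1.147 times) and Solyc03g019720 (1.19 times). After the counting error was taken off in quadrature, the excess CV had a median of 5.46% in the stable genes and 15.02% in the expressed genes, and was smallest in Solyc11g073280 (1.69%), Solyc03g019720 (2.06%) and Solyc03g032160 (2.82%). Like the CV, the excess CV includes the differences between group means that the rule limits. It also pools control counts with adjusted HS counts, where the within-group CV of Solyc11g073280 fell below counting error. The value for that gene is therefore no measure of its spread in unadjusted counts.

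The 4 stable genes with the most reads were not the steadiest. Solyc06g054260 came first, with 35588 reads per library on average. It had 1422, 1760 and 2085 CPM in HS, against 1592, 1759 and 1976 CPM in control. The medians were nearly equal, yet the HS libraries scattered from the lowest to the highest of all 24. Its CV was 9.92%, far above the 0.55% of counting error, and the SD within rs2z35 36 HS was 291 CPM on a mean of 1894 CPM. Solyc10g074980 had 397, 432 and 531 CPM in HS, against 382, 439 and 504 CPM in control (CV 8.001%). Solyc11g069380 had 315, 354 and 395 CPM in HS, against 345, 366 and 390 CPM in control (CV 6.72%). Solyc06g009210 was the steadiest of the 4 genes with the most reads, with 296, 318 and 343 CPM in HS, against 302, 327 and 366 CPM in control (CV 5.51%).

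The largest spread belonged to Solyc06g065990. It had 41.6, 52.9 and 68.6 CPM in HS, against 45.9, 56.8 and 61.8 CPM in control. Its lowest library was rs2z36 HS replicate 2 and its highest WT HS replicate 1, a factor of 1.65, and within WT HS the SD was 11.6 CPM on a mean of 55.7 CPM. Its 8 group means nevertheless lay between 50.8 and 58.1 CPM, and it met the rule in 15 of the 24 settings with a library left out.

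**Figure D3:**
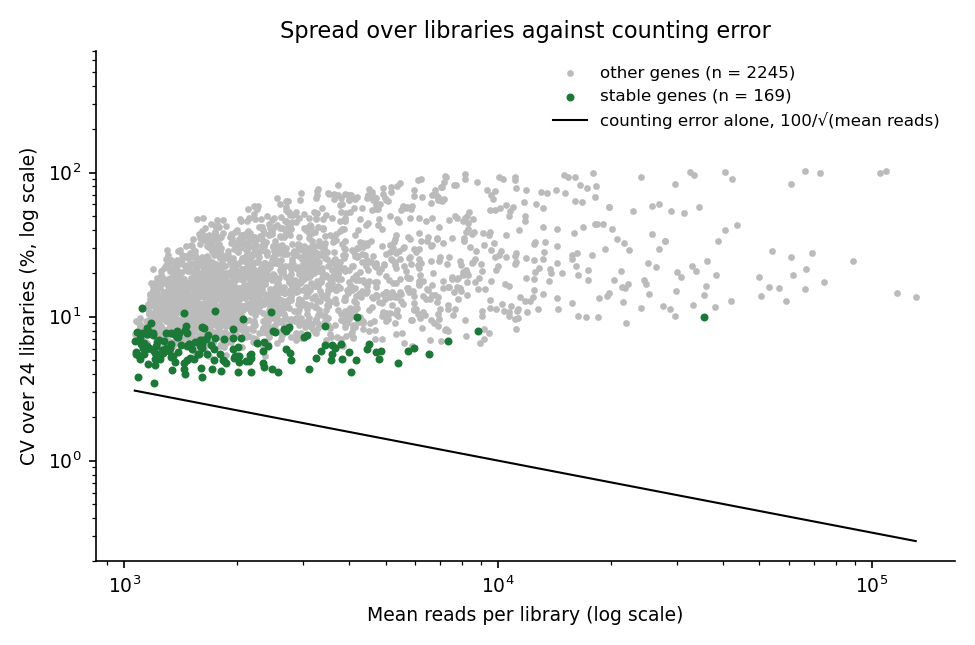
CV over the 24 libraries in % (vertical axis, log scale) against mean reads per library (horizontal axis, log scale) for the 169 stable genes in green and the other expressed genes in grey. The line is the CV from counting error alone at the mean number of reads. A few green points with few reads lie close above it, but Solyc06g065990, with 1117 reads, has the largest CV of the stable genes (11.4%). Solyc06g054260, with 35588 reads and a CV of 9.92%, lies far above the line.

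By level, the stable genes were found at 50 CPM and little above more often than among the most abundant transcripts. Divided by their mean into 4 classes of equal size, the expressed genes above 193 CPM held 16 stable genes of 604 (2.65%), those from 111 to 193 CPM 30 of 603 (4.98%), those from 79.3 to 111 CPM 39 of 603 (6.47%) and those below 79.3 CPM 84 of 604 (13.9%). That last share follows in part from the rule, since a gene with a mean close to 50 CPM can only have a lowest group of 50 CPM if it is nearly level.

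The median level of the stable genes, in % of each gene's own mean, was 96.6 to 101% in the 12 HS libraries and 97.2 to 103% in the 12 control libraries. Between 136 and 160 of the 169 genes lay within 10% of their mean in an HS library, and between 137 and 164 in a control library. WT control replicate 3 was the highest library for 26 genes, the most of any, and the lowest for 1, and it had the highest median level. Without it, 172 genes met the rule, 154 of them among the 169, and the median CV was 6.03%. rs2z35 HS replicate 2 was the lowest library for 19 genes and rs2z36 control replicate 1 for 18.

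Because the same libraries had chosen the genes, each library was also left out of the choice in turn and then compared with the mean of the other 23. A stable gene chosen without the library deviated from that mean by a median of 5.04% in a left-out HS library (range over libraries 3.90 to 6.33%) and by 4.34% in a left-out control library (3.59 to 5.76%). The expressed genes chosen by level alone deviated by 13.5% in HS and by 12.4% in control. Within 10% of the mean were a median of 83.1% of the stable genes in a left-out HS library and 86.2% in a control library, against 38.8% and 42.3% of the expressed genes. The ranges over libraries of these shares did not touch, as stable genes never fell below 71.6% and expressed genes never exceeded 47.5%. WT control replicate 3 had the lowest share within 15% of all left-out libraries, 86.6% of the stable genes, whereas the other libraries had at least 90.9%. The scaling factor of the left-out library still came from all 24 libraries, and the HS counts had been adjusted together. The other libraries of its group stayed in the choice, so levelness over heat and genotype was not held out. The mean of the other 23 mixed HS and control libraries, so the deviations of the expressed genes include their differences between the conditions.

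The choice of members was less firm than the levels. Leaving out a single library gave between 137 stable genes (without rs2z35 36 HS replicate 3) and 180 (without rs2z35 HS replicate 1), of which 134 to 163 were among the 169. Of the 169 genes, 63 met the rule in all 24 such settings, and the least firm gene met it in 13. A limit of 15% therefore separated many genes by less than the value of a single library.

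The set of stable genes also depended on the scaling. When CPM were computed from total counts alone, all 169 stable genes were lower in HS than in control, at 0.560 to 0.672 times the control mean (median 0.610). Together they took up 1.39 to 1.604% of the reads in HS and 2.36 to 2.51% in control. None of them met the rule on this scale, and their median CV became 25.7%. The expressed genes shared this shift, since their median was 0.603 with total counts (log2 -0.73) and 0.982 with TMM (log2 -0.03). Level with TMM thus means level relative to the bulk of the genes, and a change of the bulk itself was not tested. The 27 genes that met the rule with total counts were different ones, 0 of them among the 169, and with TMM their HS mean was 1.52 to 1.75 times the control mean.

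**Figure D4:**
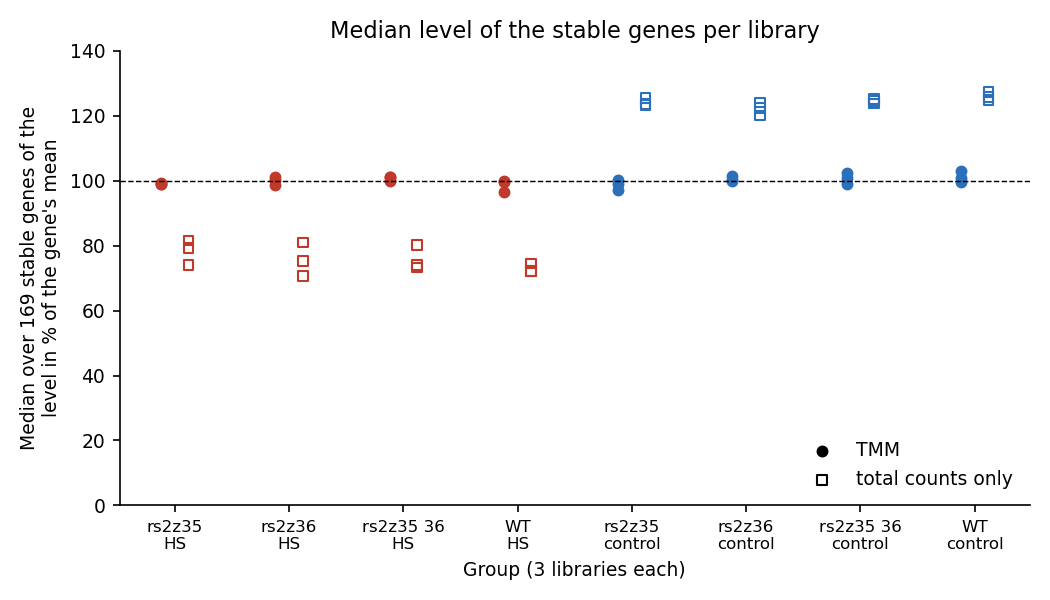
Median over the 169 stable genes of the level in % of each gene's mean over 24 libraries (vertical axis), for each library of the 8 groups (horizontal axis, HS groups on the left). Filled circles used TMM and stay between 96.6 and 103%, and open squares used total counts only and lie at 70.7 to 81.5% in HS and at 120 to 127% in control.

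Scalings that resemble TMM kept a part of the set within the range of 134 to 163 genes kept with a library left out. Most of the settings with a library left out kept more. With the median-of-ratios size factors of DESeq2, 175 genes met the rule, and 151 of them were shared (89.3% of the TMM set and 86.3% of the other). With TMMwsp factors, a variant of TMM that treats zero counts differently, it was 171 with 150 shared (88.8% and 87.7%). The median ratio of HS to control of the 169 genes was 1.01 with both. Upper-quartile factors gave a median of 0.938 and shifted all expressed genes to a median log2 of -0.11. That was enough to leave 72 of the 169 genes (42.6%) in a set of 142. Under all of these 4 scalings, 56 genes met the rule, and 8 of the 10 genes with the smallest CV were among them, all but Solyc07g053260 and Solyc01g111450. Next in CV among the 56 were Solyc01g109360 (CV 4.34%), with 66.0, 71.9 and 77.2 CPM in HS, against 68.4, 70.9 and 75.8 CPM in control, and Solyc05g012160 (CV 4.48%), with 109, 116 and 127 CPM in HS, against 110, 115 and 127 CPM in control. The libraries of both conditions covered nearly the same range in Solyc05g012160. In Solyc01g109360 the HS range extended beyond the control range on both sides.

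**Figure D5:**
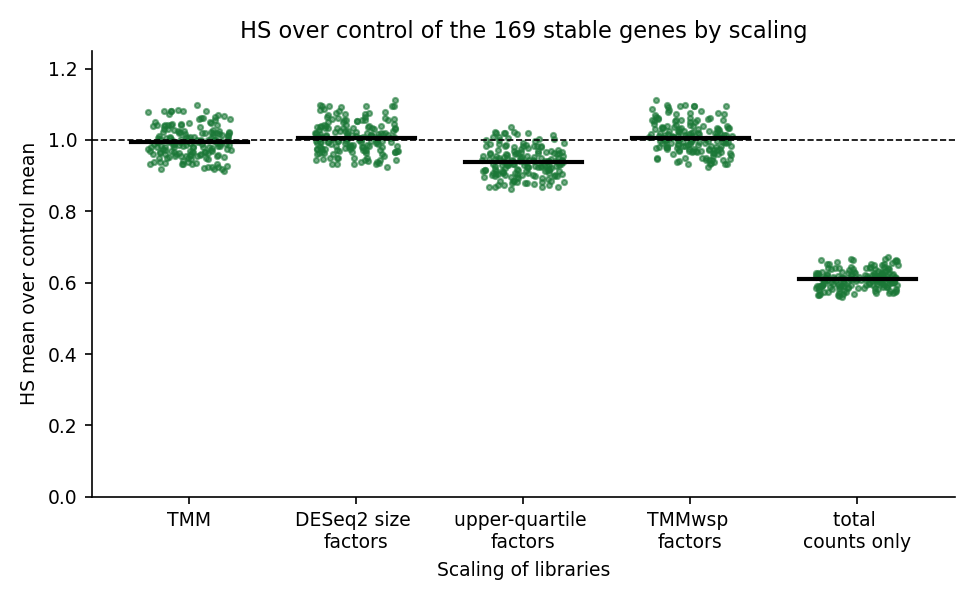
Ratio of the HS mean to the control mean (vertical axis, linear from 0) of each of the 169 stable genes under 5 scalings of the libraries (horizontal axis), with the median as a bar and a dashed line at 1. The medians are 0.993 with TMM, 1.01 with DESeq2 size factors, 0.938 with upper-quartile factors, 1.01 with TMMwsp and 0.610 with total counts only.

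The ratio of a gene to another gene of the same library does not depend on the scaling at all. For each pair of stable genes the SD over the 24 libraries of the log2 ratio of counts was computed, a measure that RT-qPCR studies use to rank reference genes. Over the 14196 pairs its median was 0.12 (0.04 to 0.26), and over the pairs of expressed genes it was 0.35. Genes chosen to be level on the TMM scale also keep their ratios to each other, so this difference follows largely from the rule. The lowest SD over the 2912491 pairs of expressed genes was 0.033. Among pairs of stable genes the steadiest was Solyc02g070310 with Solyc06g007470, whose read ratio was 1.45, 1.504 and 1.55 (lowest, median and highest) in HS, against 1.42, 1.51 and 1.58 in control. The SD of 0.04 was little above the 0.03 of counting error. Neither gene was among the 10 with the smallest CV (4.77% and 5.46%), and both were slightly higher in HS than in control (1.04 times each), so that they varied together. Pairs ranked next were Solyc02g070310 with Solyc06g071720 and Solyc06g009210 with Solyc03g079940. When all 2414 expressed genes were ranked by their mean pair SD, 101 of the first 169 (59.8%) were stable genes. A gene ranks high there if it follows most other genes, and TMM also scales through the bulk of the genes. The overlap is thus a description and not an independent test.

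RT-qPCR commonly uses the geometric mean of several reference genes, and the spread of such means was computed from the genes in order of their CV. A single gene, Solyc11g073280, had a CV of 3.46%, the first 3 together 2.55%, the first 5 together 1.79% and the first 10 together 1.68%. With all 169 genes the CV was 1.45%, at 99.7 ± 1.14% in HS and 100.3 ± 1.68% in control (SD, n = 12 each, in % of the mean over 24 libraries). Most of the gain was thus reached with 5 genes. The genes had been ordered on these same libraries, so these CVs describe the 24 libraries and are no estimate for other samples.

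The stable genes lay on all 12 chromosomes by their gene numbers, and no 2 of them were neighbours in the gene order of the files. Chromosome 1 held the most (27), chromosomes 4 and 12 the fewest (8 each). As a share of the expressed genes of a chromosome, they were most frequent on chromosome 10 (18 of 162, 11.1%) and least frequent on chromosome 4 (8 of 197, 4.06%). The sources used here describe none of the 169 genes, and 122 of the 2414 expressed genes, so that names, functions and sequences of the stable genes are not given.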

How the data were processed

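The authors sequenced polyA-selected, non-directional paired-end libraries, aligned reads with STAR to tomato genome SL4.0 and deposited counts per gene (ITAG4.0) from HTSeq 0.9.1; HS counts were adjusted by them with ComBat-Seq, whose batch variable is not given in the sources used here. Strand is not resolved, so overlapping and antisense genes cannot be told apart.

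From the deposited counts of 34075 genes, those whose reads over 24 libraries summed to 10 or more were scaled with TMM in edgeR 4.0.16 (R 4.3.3). edgeR's quasi-likelihood test was fitted on 8 group means, and genes with an absolute log2FC above 1 and a Benjamini-Hochberg adjusted p-value below 0.01 were called. Contrasts averaged over genotypes or conditions. The adjusted HS counts and the control counts shared 1 estimate of spread per gene. Adjusted p-values may therefore be too small, and the effect on the calls was not tested. Counting CV is the root mean square of 1 over the square root of the counts, and pair ratios used counts plus 0.5. It covers counting error only. Steps were tested on simulated counts, which for the rule held counting error only, so that replicate spread was not covered there. Alternatives were DESeq2 1.42.0, other scalings, filters and limits, a replicate block, each library left out and, chosen after seeing the data, scaling by the stable genes and the ranking by excess CV.

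The members, lists and rules were chosen with earlier results of these data known. Genes named are the 10 with the smallest CV, the 4 with the most reads, the first 10 stable under 4 scalings, those with a highest over lowest library above 1.6, the 3 genes on each side of each limit and the 3 steadiest pairs. Conventional reference genes, functions and sequences were not analysed here, since the sources used tie no name to these gene numbers. No pair of replicates agreed within sampling noise (chi-square per degree of freedom 4.75 to 28.4), and each counted as a sample.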

Additional observations from a re-analysis of the deposited data

How the results depend on the processing

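Of 51 alternative values other than those with a library left out, 36 were labelled as unchanged. For a count this meant within 1.5 times. For the median CV it meant within 0.767, the SD over the 8 groups of the median within-group CV in %. For the median ratio it meant within 0.0114, the SD over the 12 HS libraries of their median ratio to the control mean. The number of stable genes was 27 with total counts, 40 at a limit of 10%, 370 at 20%, 366 with a level limit of 20 CPM, 52 with 100 CPM, 1739 over the 4 control groups alone, 1657 over the 4 HS groups alone and 880 over the WT groups alone. The fewer groups of the last 3 settings leave fewer means to keep level. With the group median in place of the mean it was 129, 109 of them shared, with no filter 170, with filterByExpr 183 and with scaling by the stable genes themselves 182. The median ratio of HS to control was 1.01 (1.00636) with DESeq2 size factors, 1.01 (1.00658) with TMMwsp, 0.938 with upper-quartile factors and 0.610 with total counts, where the median CV was 25.7%. Leaving out a library gave 137 to 180 stable genes, a median CV of 5.87 to 6.10% and a median ratio of 0.988 to 1.00. DEGs in HS numbered 10298 with total counts (1911 higher and 8387 lower, against 3444 and 3409 with TMM). With DESeq2 without shrinkage, 32 DEGs were found in rs2z35 against 15 with edgeR, and the cause was not tested. Leaving out a library gave 6718 to 6853 DEGs in HS, 12 to 17 in rs2z35, 41 to 62 in rs2z36 and 80 to 110 in rs2z35 36.

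With the replicate number as a block, 6794 DEGs were found in HS, 13 in rs2z35, 47 in rs2z36 and 93 in rs2z35 36, and no count moved by over 1.5 times. The numbers were not taken as pairs. Deviations of same-numbered samples from the group means correlated with a median of 0.01 in control (8 of 18 pairs over 0.1) and of -0.32 in HS (0 of 18 pairs), where the deposited counts hold almost no difference between the means of the replicate numbers. The count of conventional reference genes within the ratio limit was not run. Depth limits the CVs of the stable genes with few reads, whose counting CV reached 3.18%. The batch adjustment limits the comparison of spread between HS and control and the reading of the adjusted p-values.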
